A study of Mus musculus with 6 samples.

Results

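In sorted B16 F10 cells, a mouse melanoma line, 2475 promoter regions carried an H3K27ac peak in both high-pigment (HP) libraries and in neither low-pigment (LP) library. They were 2475 of the 7204 regions called only in HP and of the 182956 regions obtained by merging the 4 deposited peak lists wherever peaks shared at least 1 bp. A region counted as promoter if any part of it fell within 3 kb of a transcription start site (TSS) in the GENCODE annotation of mm10. These regions were selected on peak calls, so that presence in HP and absence from LP describes the choice and is not a result. By the same rule 3.94% of all merged regions and 4.87% of the 50788 regions at promoters were called only in HP.

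Seeding density was 100 cells per cm2, and on day 5 the cells were sorted into LP and HP by side scatter, used as a measure of pigment content. LP and HP had 2 replicates each, and peak calling used 2 IgG libraries made from cells that had not been sorted. All groups were the same line with no treatment named in the labels, and LP and HP were fractions of a sort rather than separately treated populations. Depth was 11467942 and 15353176 fragments for LP replicates 1 and 2, with 57942 and 66580 peaks, and 11483830 and 14254904 for HP, with 64759 and 71529 peaks. The labels do not say whether the replicates came from separate cultures. Peak lists are silent wherever the threshold was not reached, and a region without an LP peak may still have carried signal below the threshold. In a bulk library, more cells with the mark and more of the mark per cell cannot be told apart.

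H3K27ac is an acetyl mark that p300 and CBP place on histone H3 at active promoters and enhancers. At the start of an active gene the mark flanks the nucleosome-depleted TSS, often over CpG-rich DNA, while CpG-poor promoters and enhancers tend to carry it in a cell-type-restricted manner. In melanocytes the mark has been linked to the genes of melanin synthesis, such as Tyr, Tyrp1 and Dct, and their regulator Mitf. All 7 melanocyte-defining genes examined (Mitf, Sox10, Tyr, Tyrp1, Dct, Pmel and Mlana) had a promoter peak in all 4 libraries. So did the leukocyte marker Cd68 and the endothelial marker Pecam1, while the other markers of other cell types had one in 3 libraries or fewer. Not all listed melanocyte genes had one in every library, and Kit, Ednrb, Irf4 and Lef1 had one in only 1.

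These sequences show the DNA under the HP replicate 2 summit of HP-only promoter regions ranked highest by −log10 q within their group of genes. They were read from the mm10 reference (GRCm38) on the plus strand. Pkn3, Hemk1 and Frk stood for genes with no LP peak at any annotated TSS, and Gfpt1 and Wdr95 for genes whose promoter also held a region of all 4 libraries. Capitals mark CpG dinucleotides. The window reaches 100 bp to either side of the summit and leaves out annotated UTR bases. St5, ranked between Gfpt1 and Wdr95, is not shown because the longest stretch of its window outside annotated UTRs was 35 bp.
Pkn3, chr2:30077773-30077919: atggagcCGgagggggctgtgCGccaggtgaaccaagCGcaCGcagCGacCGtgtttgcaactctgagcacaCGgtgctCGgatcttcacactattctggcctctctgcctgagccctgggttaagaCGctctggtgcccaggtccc
Hemk1, chr9:107338134-107338280: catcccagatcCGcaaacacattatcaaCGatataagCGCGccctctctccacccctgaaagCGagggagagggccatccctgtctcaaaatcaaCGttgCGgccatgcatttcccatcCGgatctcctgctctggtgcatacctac
Frk, chr10:34484101-34484301: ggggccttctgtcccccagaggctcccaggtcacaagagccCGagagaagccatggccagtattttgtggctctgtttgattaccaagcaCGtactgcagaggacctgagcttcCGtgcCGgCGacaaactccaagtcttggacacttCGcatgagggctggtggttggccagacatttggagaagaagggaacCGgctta
Gfpt1, chr6:87040580-87040780: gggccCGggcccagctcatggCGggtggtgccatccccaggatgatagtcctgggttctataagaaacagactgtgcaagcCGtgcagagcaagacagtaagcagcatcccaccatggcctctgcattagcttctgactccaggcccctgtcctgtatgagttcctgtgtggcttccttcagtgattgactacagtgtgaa
Wdr95, chr5:149524241-149524441: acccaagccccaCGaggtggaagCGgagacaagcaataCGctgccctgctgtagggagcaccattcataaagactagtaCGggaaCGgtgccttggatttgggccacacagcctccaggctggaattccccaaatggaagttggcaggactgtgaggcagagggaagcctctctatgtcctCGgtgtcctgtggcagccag
The places given here are those of the summit base only. The Pkn3 sequence has its summit in an intron of the gene, a GC content of 62.6% and 9 CpGs in 147 bp. That of Hemk1 also has its summit in an intron and holds 8 CpGs in 147 bp. The Frk summit is in a coding exon, and the whole window holds 7. The Gfpt1 summit is intergenic and its sequence holds 3 CpGs. The Wdr95 summit lies in an intron of Gm15997, and its sequence holds 6.

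The same window is shown for the 3 melanin synthesis enzymes, each of which had an HP-only promoter region. These sequences were chosen after their values had been seen. Capitals again mark CpGs.
Tyr, chr7:87494288-87494488: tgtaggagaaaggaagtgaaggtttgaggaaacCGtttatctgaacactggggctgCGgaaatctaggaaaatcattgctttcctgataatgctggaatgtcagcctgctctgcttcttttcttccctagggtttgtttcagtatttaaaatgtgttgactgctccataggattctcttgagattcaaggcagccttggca
Tyrp1, chr4:80848248-80848448: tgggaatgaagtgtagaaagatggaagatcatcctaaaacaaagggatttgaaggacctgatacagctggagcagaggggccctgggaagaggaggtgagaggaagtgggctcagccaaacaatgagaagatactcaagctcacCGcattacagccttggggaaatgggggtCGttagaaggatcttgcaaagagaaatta
Dct, chr14:118044604-118044804: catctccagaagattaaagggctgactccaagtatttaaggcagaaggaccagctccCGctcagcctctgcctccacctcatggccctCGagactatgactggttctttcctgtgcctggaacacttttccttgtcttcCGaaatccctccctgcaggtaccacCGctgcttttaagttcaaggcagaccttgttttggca
The Tyr summit is intergenic, upstream of the gene, and its window has a GC content of 43.3% and 2 CpGs. The Tyrp1 and Dct summits are in introns, and their windows hold 2 and 4 CpGs. None of the 3 windows contained a match to the E-box letters TCATGTG or TCACGTG, which says only that these letters are absent from these windows. With 250 bp to either side, the Tyr window held TCATGTG.

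The HP-only promoter regions were lower peaks than the promoter regions called in all 4 libraries, but not low among all HP peaks. Their scaled pileup, the number of fragments over the summit per 1000000 fragments of the library, had a median of 0.958 in HP replicate 1 and 1.12 in HP replicate 2. Promoter regions called in all 4 libraries (10064 regions) had medians of 4.53 and 7.54 in the HP replicates and 2.96 and 2.996 in LP. All peaks of HP replicates 1 and 2 had medians of 0.871 and 0.842. Regions called only in HP outside promoters had 0.958 and 1.05, near the values at promoters. The highest scaled pileup of an HP-only promoter region was 4.01 in replicate 1 and 5.75 in replicate 2. In fragments, the medians were 11 and 16, and 290 regions (11.7%) had at most 10 fragments in both HP libraries. The median fold enrichment over the local background was 5.23 and 5.84.

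**Figure D1:**
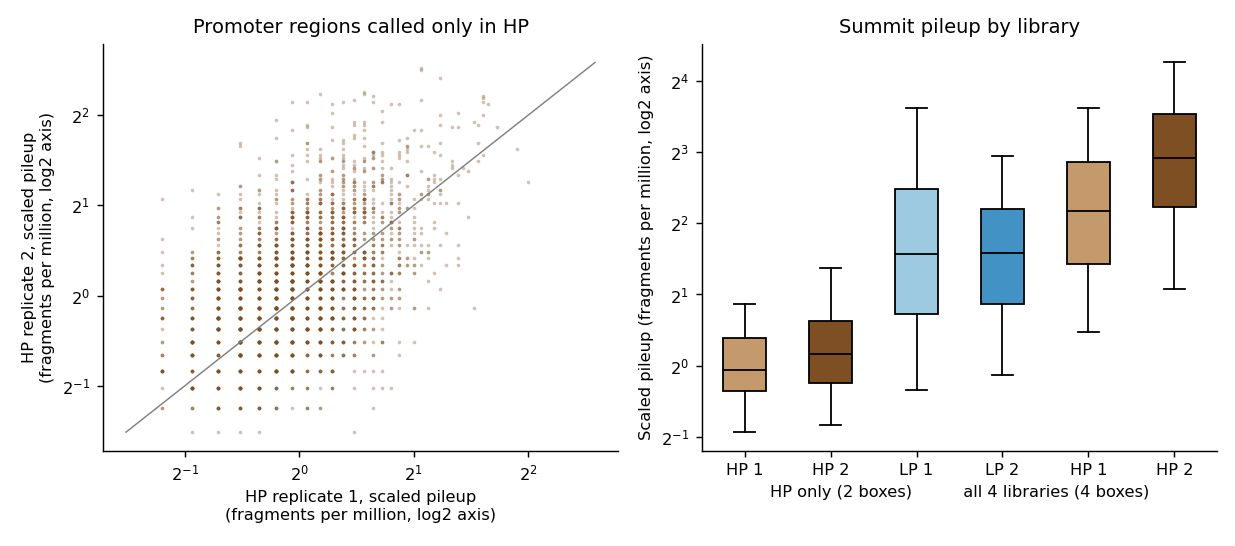
Scaled summit pileups, in fragments per 1000000 on log2 axes. Left, each point is 1 of the 2475 promoter regions called only in HP, replicate 1 against replicate 2, with the line of equal values. Right, boxes give the median and quartiles and whiskers the 5th and 95th percentiles of these regions and of the 10064 promoter regions called in all 4 libraries. The HP-only medians of 0.958 and 1.12 lie below all 4 medians of the shared regions.

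The rule required a peak in both HP libraries, which bounds the HP levels from below. The lowest pileup that was called in LP was 0.436 in replicate 1 and 0.391 in replicate 2, and the median LP peak had 0.610 and 0.716, although the threshold also depends on the local background. Of the HP-only promoter regions, 2178 (88.0%) in HP replicate 1 and 2031 (82.1%) in HP replicate 2 exceeded the median LP peak of the same replicate number, and 1840 (74.3%) did so in both. The median of all HP peaks, 0.871 and 0.842, was itself above that of the LP peaks, so these shares are given as a description. HP replicate 2 was the higher library in 60.1% of them, compared with 88.2% of the promoter regions called in all 4 libraries. Over regions, which share their libraries, the log2 scaled pileups of the HP replicates correlated with a Pearson coefficient of 0.487 in the 2475 HP-only promoter regions and 0.825 in the 10064 shared ones.

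The count of such regions depended on which lists entered the rule. Without LP replicate 2 it was 4952, without HP replicate 1 it was 13326 and without HP replicate 2 it was 10957, since each list removed takes away a condition. When the HP peaks of both replicates had to share 50% of both lengths, 1245 regions remained. The closest promoter regions outside the rule were called in both HP libraries and, barely, in 1 LP library. At Abca12 a peak of LP replicate 2 with 8 fragments and a −log10 q of 1.304 kept the region out, with 13 and 31 fragments in HP. At Gm17382 the values were 8 fragments in LP replicate 2 and 13 and 23 in HP. At Rpl21-ps11 the LP replicate 1 peak had 5 fragments against 8 and 6 in HP. The lowest-ranked regions inside the rule, near Igfals, Gm15334 and Slc7a1, had 12 and 10, 6 and 7, and 10 and 8 fragments in the HP replicates.

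The nearest TSS belonged to a protein-coding gene in 1790 of the HP-only promoter regions (72.3%, 95% Wilson interval 70.5 to 74.1, counting error only). The nearest TSS was that of a long noncoding RNA (lncRNA) in 375 (15.2%, 13.8 to 16.6), of a small RNA in 120 (4.85%), of a pseudogene in 109 (4.40%) and of an unverified TEC transcript in 78 (3.15%). Among promoter regions called in all 4 libraries 90.0% were nearest to a protein-coding TSS and 6.53% to an lncRNA. All 50788 promoter regions together had 71.7% nearest to a protein-coding gene, close to the share of the HP-only regions. Of the lncRNA cases 216 were lincRNAs and 108 antisense transcripts, and 53 of the small RNAs were miRNAs. Of the regions nearest to another type of gene, 113 (16.5%) also overlapped the window of a protein-coding TSS.

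HP-only promoter regions lay beside the TSS more often than on it. Their midpoints were a median of 1130 bp from the nearest TSS, compared with 151 bp for regions called in all 4 libraries and 424 bp for regions of both HP and 1 LP library. The TSS itself was inside 579 of them (23.4%, 21.8 to 25.1), against 93.1% of the regions called in all 4 libraries, 29.5% of all promoter regions and 8.49% of those called in 1 library. The midpoint was within 500 bp in 752 (30.4%) and in 37.6% of all promoter regions. Of the HP-only regions, 1369 (55.3%) overlapped the 1 kb on either side of a TSS, and 46.5% were centred upstream. They were also short, with a median length of 591 bp against 1594 bp. The summit of HP replicate 2 was in an intron in 1392 (56.2%), between genes in 513 (20.7%), in a coding exon in 176 (7.11%) and in a UTR in 167 (6.75%).

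The rule accepts any annotated TSS, and many were internal. The 3 kb window of the most upstream TSS of a gene was reached by 1687 of the HP-only promoter regions (68.2%, 66.3 to 70.0), compared with 90.8% of the promoter regions called in all 4 libraries and 70.9% of all promoter regions. The others were assigned through the start of a shorter transcript inside a gene. The share of protein-coding genes with an HP-only promoter region was 2.70% for genes with 1 annotated TSS, 6.01% with 2 to 4, 11.7% with 5 to 9 and 20.2% with 10 or more, so that genes with many starts had more chances to be counted.

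At the same promoter as most HP-only regions there was another region with an LP peak. Within 3 kb of the nearest TSS, 1670 (67.5%, 65.6 to 69.3) had such a neighbour. Other classes of promoter region often had one too. The share was 53.8% for regions of both HP and 1 LP library and 56.4% for those of 1 HP library. It was 51.0% for regions called only in both LP libraries and 39.2% for those of 1 LP library. For 896 HP-only regions (36.2%) the best neighbour was called in all 4 libraries, and for 331 (13.4%) in both HP and 1 LP library. For 143 (5.78%) it was called in 1 HP and at least 1 LP library, and for 300 (12.1%) in 1 LP library alone. None had a neighbour called only in both LP libraries as its best. The other 805 had no LP peak at the promoter, 342 of them with no further region at all. The nearest region with an LP peak was less than 500 bp away from 911 (36.8%) and more than 3000 bp away from 726 (29.3%), with a median gap of 1037 bp. The share with an LP-containing neighbour was 40.8% when LP replicate 2 was left out and 41.5% with a window of 1 kb.

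**Figure D2:**
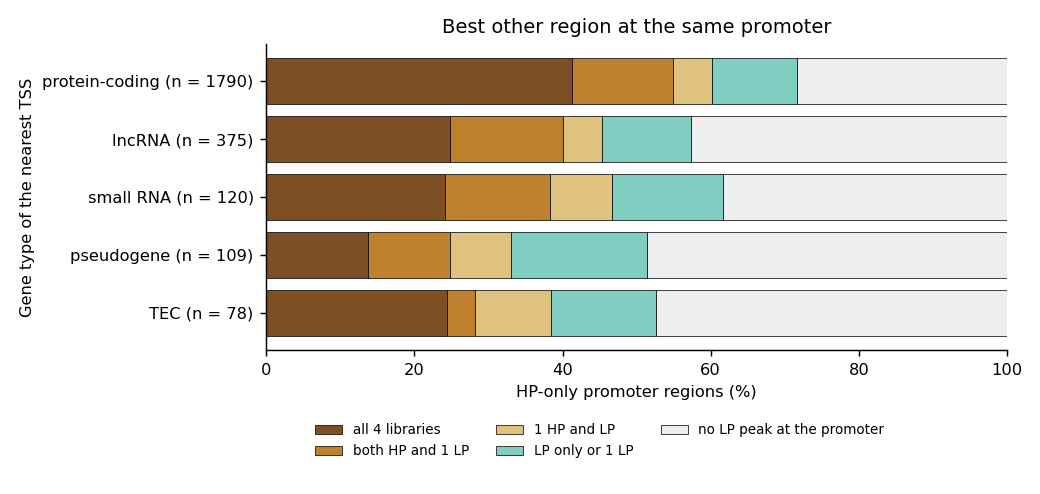
Bars give, for each gene type of the nearest TSS, the percentage of HP-only promoter regions by the most widely called other region at the same promoter. A region of all 4 libraries was beside 41.3% of those nearest to a protein-coding TSS and 24.8% of those nearest to an lncRNA, and no LP peak was found at 28.4% and 42.7%.

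Gene types differed in this respect, as they did in shared regions over all genes. A region of all 4 libraries was present at 46.2% of all protein-coding genes, 16.9% of lncRNA genes and 2.38% of pseudogenes. An LP-containing neighbour was present at 71.6% of the regions nearest to a protein-coding TSS (69.5 to 73.7) and at 57.3% of those nearest to an lncRNA (52.3 to 62.2), and at 51.4% of those nearest to a pseudogene (42.1 to 60.6). The same count for other classes of promoter region gives a scale. A neighbour called in all 4 libraries was found for 36.2% of the HP-only regions (34.3 to 38.1), for 24.4% of the regions of both HP and 1 LP library (22.9 to 26.0), for 30.7% of the regions of 1 HP library (29.98 to 31.3) and for 16.5% of those of 1 LP library (15.9 to 17.1). The intervals cover counting error only and treat regions of the same promoter as separate.

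Position went with the neighbour. Beside a region of all 4 libraries, only 11.5% of the HP-only regions contained the nearest TSS and 17.7% were centred within 500 bp of it. Where the promoter had no LP peak, 35.3% contained the TSS (32.1 to 38.6) and 43.2% were centred within 500 bp (39.8 to 46.7). The gap to the nearest LP-containing region had a median of 337 bp in the former and 7237 bp in the latter. The median scaled pileups in HP replicates 1 and 2 were 0.958 and 1.05 beside a shared region and 1.04 and 1.12 without an LP peak. Since a TSS inside a neighbouring region cannot also be inside the HP-only region, part of this difference in position is set by the definition.

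**Figure D3:**
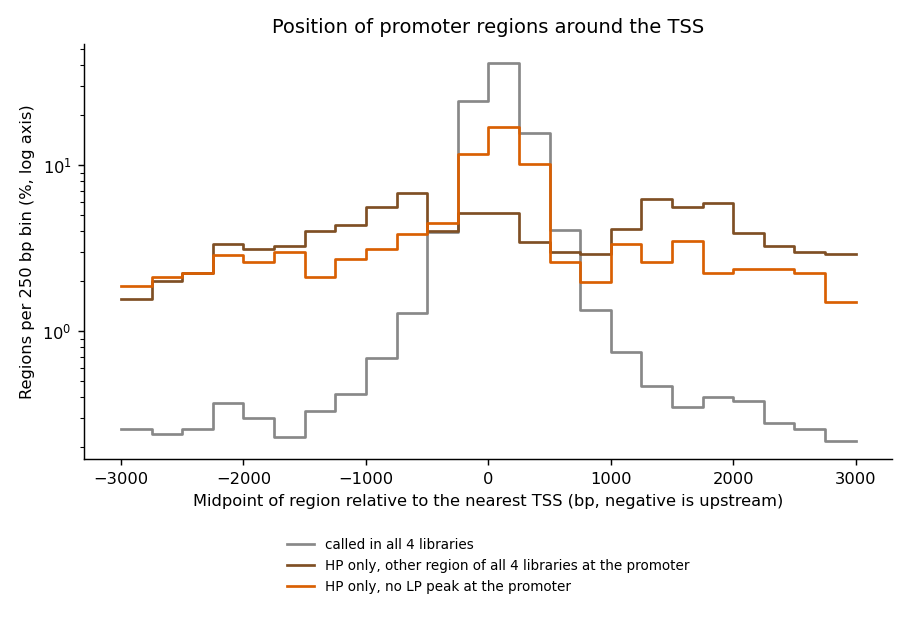
Percentage of regions per 250 bp bin of distance between the region's midpoint and the nearest TSS, on a log axis, negative upstream. Regions called in all 4 libraries peak at the TSS, HP-only regions without an LP peak at the promoter have a lower peak there (43.2% within 500 bp), and HP-only regions beside a region of all 4 libraries have none (17.7% within 500 bp).

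Shared regions beside an HP-only region had levels near those of other shared promoter regions. There were 819 different regions of all 4 libraries next to an HP-only region. Their median log2 ratio of HP to LP scaled pileup was 0.55 in replicate 1 and 1.37 in replicate 2, and it was 0.52 and 1.29 in the 9245 shared promoter regions with no such neighbour. The median length covered by peaks of a neighbour was 726 and 1018 bp for the LP lists, against 1273 and 1608 bp for the HP lists. In the shared regions with no HP-only neighbour these medians were 682, 989, 1138 and 1454 bp.

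The DNA under the HP-only regions was poorer in CpG than that of promoter regions called in all 4 libraries, and close to that of promoter regions called only in LP. At the summit of HP replicate 2 the window of 100 bp to either side had a median GC content of 52.7% (quartiles 48.3 and 57.2) and a CpG observed to expected ratio of 0.269 (0.155 to 0.420). Promoter regions called in all 4 libraries had medians of 69.2% and 0.827, and regions called only in HP away from promoters had 51.2% and 0.225. The 96 promoter regions called only in LP had medians of 50.2% and 0.267, in windows at the LP replicate 2 summit. At the HP replicate 2 summit, promoter regions of both HP and 1 LP library had 58.2% and 0.413. All promoter regions with an HP replicate 2 peak had 57.2% and 0.420. A window with GC above 50% and a ratio above 0.6 was found in 7.72% of the HP-only promoter regions and in 81.4% of the promoter regions called in all 4 libraries. The 250 bp to either side of the nearest TSS met these limits in 24.4% and 81.1%. The share was 48.5% where the neighbour was called in all 4 libraries and 10.7% where the promoter had no LP peak. More than 50% of the window was repeat-masked in 15.2% of the HP-only promoter regions, 1.31% of the shared ones and 11.4% of all promoter regions with an HP replicate 2 peak.

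**Figure D4:**
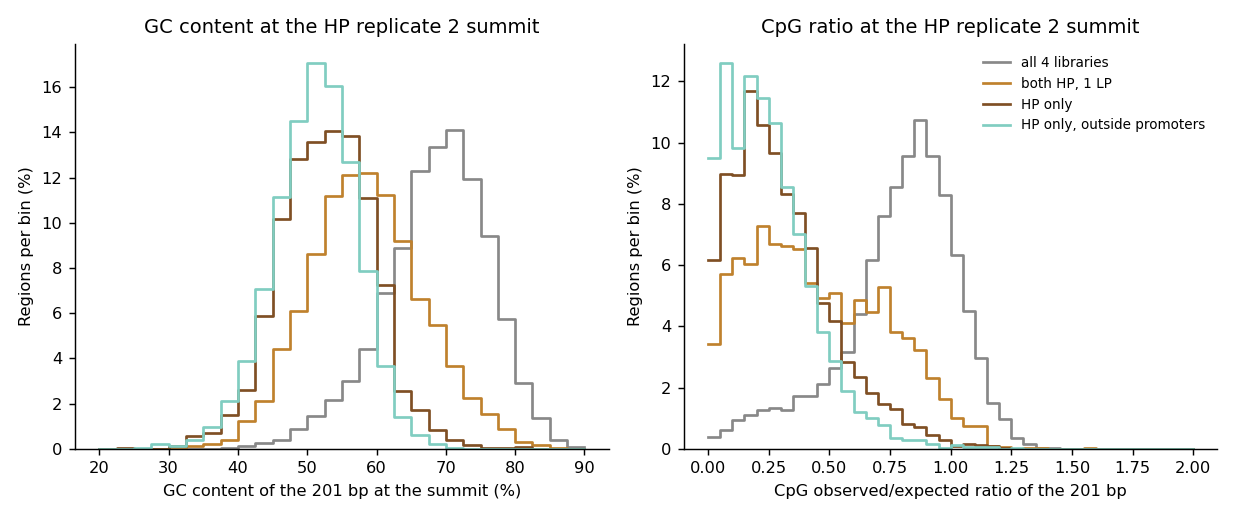
Distribution of GC content (left) and CpG observed to expected ratio (right) within 100 bp of the HP replicate 2 summit, as the percentage of regions per bin. Promoter regions called only in HP (median GC 52.7%, ratio 0.269) overlie regions called only in HP outside promoters (51.2%, 0.225) rather than promoter regions called in all 4 libraries (69.2%, 0.827).

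Motif letters were counted on both strands of the same window. TCATGTG, the M-box letters bound by Mitf and its relatives, occurred in 66 HP-only promoter regions (2.67%, 2.10 to 3.38), in 2.13% of all 27936 promoter regions with an HP replicate 2 peak and in 0.705% of those called in all 4 libraries. TCACGTG occurred in 38 (1.54%) against 1.18% and 1.20%. The letters TGANTCA, read by AP-1 factors, occurred in 150 (6.06%, 5.19 to 7.07) against 4.09% and 2.07%, and CTTTGAT, read by Tcf and Lef1, in 53 (2.14%) against 1.74% and 0.556%. In windows of 50% to 60% GC the shares for TCATGTG were 2.77% in HP-only promoter regions and 2.79% in regions of all 4 libraries, and for TGANTCA they were 5.53% and 5.05%. A match is a description of the letters and not a binding site.

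A window with a match is shown for Atf6, a membrane-bound transcription factor of the unfolded protein response. The capitals mark the reverse complement of TCACGTG.
Atf6, chr1:170791629-170791829: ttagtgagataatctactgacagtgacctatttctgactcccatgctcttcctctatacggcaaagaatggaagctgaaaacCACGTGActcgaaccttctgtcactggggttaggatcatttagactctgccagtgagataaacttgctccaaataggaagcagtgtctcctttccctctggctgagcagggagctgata
This region had 7 and 8 fragments in the HP replicates and lay 76.1 kb inside the gene, 2695 bp downstream of the start of a shorter transcript.

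Of 21951 protein-coding genes, 1762 had an HP-only region in the window of at least 1 TSS, which is 8.03%. A region of all 4 libraries was also present at the TSSs of 1223 of these genes. No LP peak was found at any TSS of 202 of them (11.5%). Of 449 lncRNA genes with an HP-only region 160 (35.6%) had no LP peak at any TSS. Over all genes, a region of all 4 libraries was present at 46.2% of protein-coding genes and 16.9% of lncRNA genes. The contrast between the gene types is therefore not particular to the HP-only regions. The HP-only regions were nearest to 2120 different genes, and 277 protein-coding genes had 2 or more.

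Genes without an LP peak at any TSS and with the strongest HP-only region came from varied functions, and in 9 of the 10 taken by rank the region lay within 1 kb of the most upstream TSS. Pkn3, a serine/threonine kinase of the protein kinase N family, had scaled pileups of 2.96 and 3.23 (34 and 46 fragments) in HP replicates 1 and 2, in a region at chr2:30077642-30078256 that covered its TSS. Hemk1, which methylates translation release factors, had 2.26 and 2.53 (26 and 36 fragments) at chr9:107337976-107338936. Both replicates were at a similar level in these genes. Frk, a Src-related tyrosine kinase, had 1.31 and 3.30, and the lipid transporter gene Abca7 had 1.57 and 3.02. Ppfibp2, a liprin scaffold, had 3.74 and 3.09 and was the highest of the group in replicate 1. Slc29a3, a lysosomal nucleoside transporter, had 1.92 and 3.16. In 9 of the 10 genes HP replicate 2 was the higher library, and Ppfibp2 had the reverse order. Kif2c, a kinesin that depolymerizes microtubules in mitosis, had 1.39 and 2.24, and 76.1% of its summit window was repeat-masked. Magix and Smim8 had 1.31 and 2.46, and 1.48 and 3.37. Card14, a scaffold of NF-kB signalling, had 1.39 and 2.39 in a region 7.42 kb downstream of its most upstream TSS. The nearest LP-containing region was 3395 to 14202 bp away from these 10.

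Where the promoter also held a region of all 4 libraries, the strongest HP-only regions lay 45 to 1324 bp from the nearest region with an LP peak. Gfpt1 encodes the rate-limiting enzyme of the hexosamine pathway. Its HP-only region at chr6:87039911-87040978 had scaled pileups of 2.35 and 3.999 in the HP replicates and was centred 2402 bp upstream of the TSS, 45 bp from the shared region. That shared region had 4.19 and 4.82 in LP and 7.49 and 15.3 in HP. Nde1, a regulator of dynein, had 1.92 and 2.53 in an HP-only region 53 bp from a shared region with 2.44 and 3.32 in LP and 4.96 and 7.23 in HP. Hsp90aa1, the stress-inducible cytosolic chaperone, had 2.53 and 2.81 upstream of the TSS, and its neighbour had 1.05 and 1.17 in LP and 2.26 and 1.96 in HP. Here the HP-only region was the higher of the pair in both HP libraries, and at Gfpt1 and Nde1 it was the lower in both. Chd2, a chromatin remodeller, had 1.48 and 4.70, and the zinc finger gene Zkscan5 had 1.48 and 4.77. The stress kinase gene Map3k5 had 1.83 and 2.10, and its window held the letters TCATGTG. St5 had 3.05 and 4.56 and the netrin receptor gene Unc5b 2.53 and 3.65, in regions near internal TSSs, 87.5 and 12.3 kb from the most upstream one. Wdr95 had 2.61 and 2.53 and Ccdc126 1.83 and 2.95. All 10 neighbours were higher in HP than in LP of the same replicate, as the mean log2 ratio was in 99.3% of all 10064 shared promoter regions.

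Among regions nearest to an lncRNA TSS, the highest-ranked was at Gm49736 with 2.35 and 3.72 in the HP replicates, beside a region of both HP and 1 LP library. Gm13001 had 2.61 and 3.65, and Gm36738 had 3.05 and 2.95 in a region that covered its TSS and was 42296 bp from the nearest LP-containing region. 4930580E04Rik and Gm5103 had 2.53 and 2.67, and 2.26 and 2.03. The genes with the most HP-only regions had 4 each, and 8 protein-coding genes did so (Actn4, Cep170, Cyb5a, Eno1, Ilk, Smg5, St5 and Trak1). At Actn4, which encodes a non-muscle actinin, the 4 regions lay 42.5 to 55.3 kb inside the gene and had scaled pileups of 1.31 to 2.00 in HP replicate 1 and 0.842 to 2.10 in replicate 2. At Cyb5a, encoding cytochrome b5, they had 0.435 to 1.31 and 0.561 to 1.68, and at Cep170, a centrosomal gene, 0.435 to 0.871 and 0.491 to 1.54.

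In the list of 13 genes of melanin synthesis and melanosome structure, 6 had an HP-only promoter region (46.2%, against 8.03% of all protein-coding genes). These were Tyr, Tyrp1, Dct, Pmel, Gpnmb and Trpm1, while Mlana, Gpr143, Slc24a5, Slc45a2, Oca2, Slc7a11 and Atp7a had none. Genes of this list had a median of 4 annotated TSSs, and all protein-coding genes a median of 3. A region of all 4 libraries was present at a TSS of 10 of the 13 genes. Of the 10137 protein-coding genes with such a region, 12.1% had an HP-only one. All 6 genes also had an LP peak at one of their TSSs, and the count fell to 1 when peaks up to 500 bp apart were joined and to 2 when HP peaks had to share 50% of both lengths. It was 10 without HP replicate 1 and 10 without HP replicate 2. In those 2 settings the whole set of HP-only promoter regions was far larger, so the 8.03% and 12.1% are no scale for them. Tyr, the rate-limiting enzyme of melanin synthesis, had an HP-only region at chr7:87493791-87494744, centred 755 bp upstream of the TSS, with scaled pileups of 0.871 and 1.05 in the HP replicates (10 and 15 fragments). The shared region just inside the gene had 0.872 and 0.847 in LP and 2.09 and 1.40 in HP. In HP the region upstream of Tyr was the lower of the pair in both replicates.

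Tyrp1, a melanosomal enzyme that stabilizes tyrosinase, had 3 HP-only regions around 1 internal TSS, and the regions themselves lay 10.9 to 15.1 kb downstream of the most upstream TSS. The strongest had 1.22 and 1.47 in the HP replicates. The weakest had 0.697 and 0.631, and 78.1% of its summit window was repeat-masked. Dct, or dopachrome tautomerase, had 0.610 and 1.54 in a region 7.80 kb inside the gene, beside a shared region with 1.57 and 0.716 in LP and 1.39 and 1.96 in HP. That shared region was lower in HP than in LP in replicate 1 and higher in replicate 2. Pmel, which forms the melanosome fibrils, had 0.871 and 1.12 in a region 1345 bp upstream of its TSS. That region also overlapped a TSS window of the neighbouring cell cycle kinase gene Cdk2. The shared region at the Pmel TSS had 3.05 and 1.89 in LP and 4.79 and 9.33 in HP. Gpnmb, a melanosomal glycoprotein gene, had 0.784 and 1.33, and the cation channel gene Trpm1 had 0.871 and 1.61, both near internal TSSs.

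**Figure D5:**
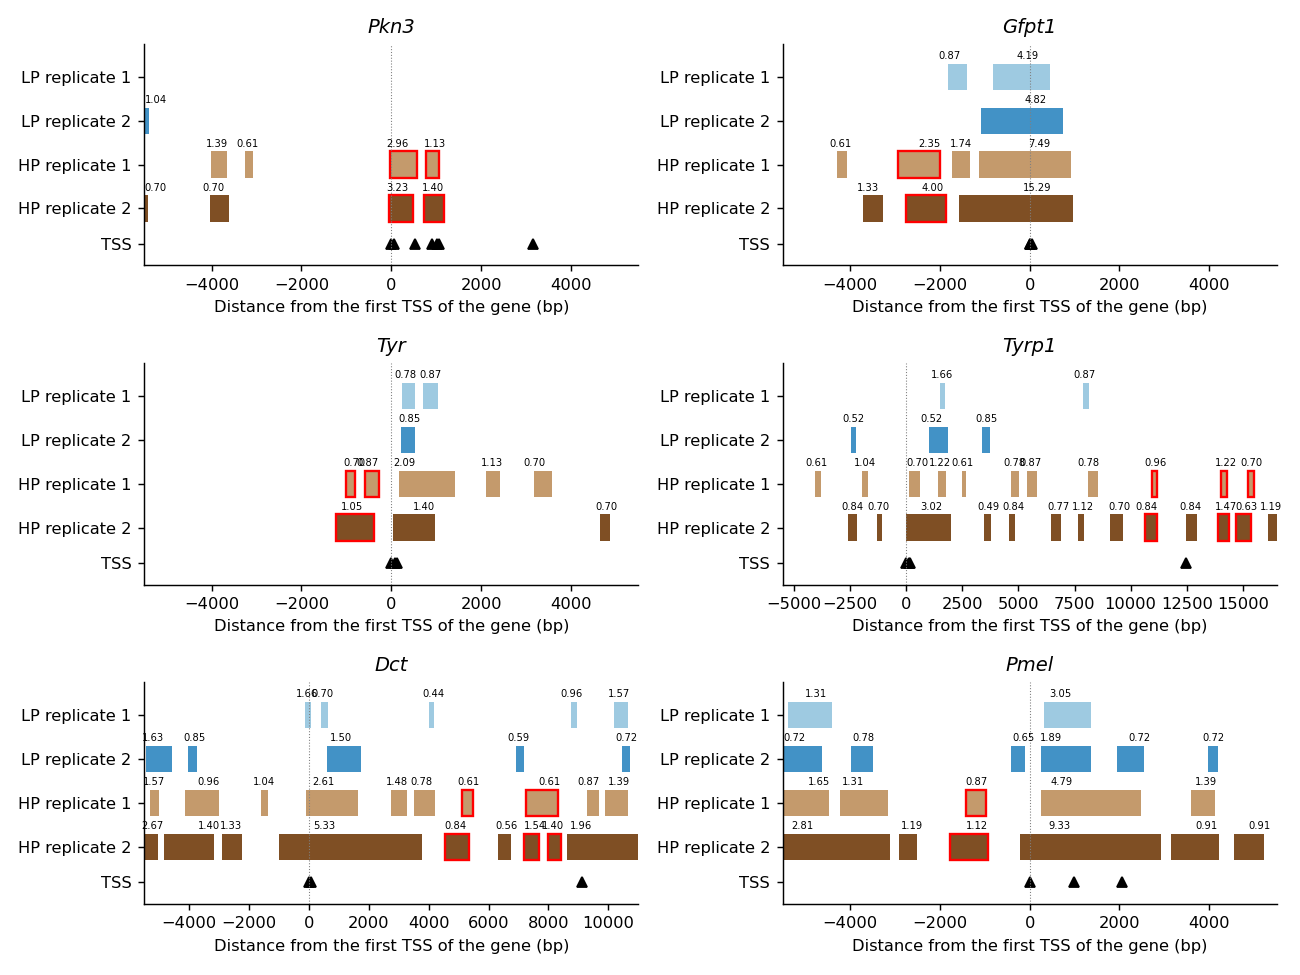
Peaks of the 4 libraries as bars against distance in bp from the most upstream TSS of 6 genes, with other TSSs of protein-coding transcripts as triangles and the scaled pileup of each peak above its bar. Red outlines mark peaks of HP-only promoter regions. At Pkn3 both outlined regions stand without LP peaks, at Gfpt1, Tyr and Pmel they lie upstream of a region with peaks of both populations, and at Tyrp1 they lie over 10 kb inside the gene. At Dct they lie near the TSS of an antisense lncRNA, which has no triangle.

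The list of 20 genes of melanosome transport and biogenesis had 4 with an HP-only region (20%). As a scale for this and the next lists, the share was 8.03% of all protein-coding genes. It was 11.7% of those with 5 to 9 TSSs and 12.1% of those with a region of all 4 libraries. The melanosome transport list had a median of 5 TSSs, and 18 of its 20 genes had such a region. Rab38, a small GTPase that delivers cargo to melanosomes, had 1.13 and 1.19 in the HP replicates in a region 18 bp from the nearest one with an LP peak. The BLOC-2 subunit gene Hps5 had 1.92 and 1.96 in the stronger of 2 regions, whose summit window was 95.5% repeat-masked. Hps4, of the BLOC-3 complex, had 1.04 and 1.54, and the melanosome tether gene Mlph 0.784 and 0.982. Of 21 transcription factors, receptors and signalling genes of melanocytes 2 had an HP-only region (9.52%). These were Tfap2a and Zeb2, and Mitf and Sox10 had none. Lysosome and V-ATPase genes had 3 of 17 (17.6%), among them the V-ATPase subunit genes Atp6v0a1 and Atp6v1a. Atp6v0a1 had 0.958 and 0.842 in the HP replicates and Atp6v1a 0.784 and 1.12.

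Genes of the unfolded protein and stress response had 5 of 14 (35.7%), and housekeeping genes 4 of 14 (28.6%). The first were Atf6, Hspa5, Ddit3, Ern1 and Hmox1, and the second included Actb, Gapdh and Rplp0. Hmox1, the heme oxygenase induced by oxidative stress, had 1.39 and 2.31 in a region upstream of the TSS. Gapdh, the glycolytic enzyme, had 1.31 and 3.23 beside a shared region with 2.27 and 2.67 in LP and 5.83 and 12.2 in HP. The summit window at Gapdh was 92.0% repeat-masked. The stress response count was 8 without HP replicate 1, where the whole set was far larger, and 1 with a window of 1 kb, where it was smaller. All 14 genes of either list had a region of all 4 libraries at a TSS, and of the 10137 protein-coding genes with such a region 12.1% had an HP-only one.

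Of 24 proliferation genes 1 had an HP-only region (4.17%), which was Cdk2 through the region it shared with Pmel. With the nearest TSS only, the count was 0. The share was 8.03% of all protein-coding genes and 12.1% of those with a region of all 4 libraries, which all 24 proliferation genes had. MAPK feedback, ETS and AP-1 genes had 2 of 18 (11.1%), Dusp6 and Etv4, and Wnt effectors and feedback genes had 1 of 12 (8.33%), Axin2. Etv4, an ETS factor downstream of ERK, had 2 regions with 1.57 and 1.89, and 1.39 and 0.772. Axin2, the Wnt feedback gene, had 1.31 and 1.47 at 2210 bp upstream of its TSS. Genes of dedifferentiation, invasion and matrix had 3 of 18 (16.7%), Tead1, Ccn1 and Sparc. Ccn1 had 0.697 and 3.16, the most unequal pair of HP replicates among these listed genes. Markers of other cell types had 0 of 5 in keratinocytes, 0 of 5 in fibroblasts, 0 of 4 in endothelium, 0 of 4 in neurons and 1 of 5 in leukocytes. The last was Cd68, through a region nearest to Mir1934. A region of all 4 libraries was present at 1 leukocyte and 1 endothelial marker and at none of the others.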

How the data were processed

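H3K27ac ChIP-seq peaks of sorted LP and HP cells (2 replicates each) were analysed. Per the labels and methods, the authors demultiplexed with bcl2fastq 2.20, trimmed with Trimmomatic 0.33, aligned to mm10 with Bowtie2 2.5.1 and called narrow peaks with MACS3 (3.0.0b1, paired-end fragments, duplicates kept, q cutoff 0.05) for each library, with the equally numbered IgG library as control. The IgG libraries were not analysed here. The deposited columns used were the summit signal (pileup, in fragments), the fold enrichment ratio and the −log10 q-value. Keeping duplicates can raise pileups, and lists with a threshold hold no value where no peak was called.

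Peaks sharing 1 bp or more were merged. A region took its highest summit pileup, scaled per 1000000 fragments of the library total in the file header. TSSs came from the GENCODE annotation of mm10, and sequence from the RefSeq copy of GRCm38. Intervals are 95% Wilson intervals. Members and gene lists were chosen with earlier results of these data known. The rule uses the HP against LP contrast, so no test was run, and 2 against 2 replicates cannot give an exact two-sided permutation p below 0.3333. Named genes were the 10 regions of highest mean −log10 q rank at genes without an LP peak, the 10 beside a region of all 4 libraries, 5 at lncRNAs, listed genes, the genes with most regions (3 of 8 tied, by alphabet) and 3 on each side of the rule. Some named items are not reported here. Alternatives varied the q cutoff, list size, merging, window, TSS set, chromosomes and libraries. The scripts were tested on simulated data and run with pysam 0.24.0, matplotlib 3.10.9, scipy 1.17.1, numpy 2.4.6 and pandas 2.3.3 under Python 3.11.15.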

Additional observations from a re-analysis of the deposited data

How the results depend on the processing

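The number of promoter regions called only in HP was 1245 when the HP peaks had to share 50% of both lengths, 1369 with a 1 kb window, and 2974 to 13326 when 1 library was left out. It was 2394 and 2305 at q of at most 0.01 and 0.001, 2376 with lists of equal size, 1701 when gaps of up to 500 bp were joined, 1903 with protein-coding TSSs only and 2475 on chromosomes 1 to 19, X and Y. The share with an LP-containing neighbour was 64.1% and 56.5% at the stricter q cutoffs, 65.1% with lists of equal size, 48.7% with gaps joined, 41.5% with the 1 kb window, 72.4% with protein-coding TSSs only, 69.6% over any TSS overlapped and 40.8 to 63.0% with a library left out. The share nearest to a protein-coding TSS was 68.3% with gaps joined, 76.9% over any TSS overlapped and 69.5 to 75.3% with a library left out. The share overlapping 1 kb around a TSS was 58.7% at q of at most 0.001, 53.1% with gaps joined and 47.4 to 65.2% with a library left out. Of 78 regions named, 70 and 65 remained at the stricter q cutoffs, 73 with lists of equal size, 38 with gaps joined, 41 with the 50% overlap and 49 with the 1 kb window. The cause of these shifts was not tested. No test was run, paired or unpaired, and ratios of HP to LP within a replicate number are given as descriptions. The low pileups limit what the absence of an LP peak can show.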

Other observations

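The reverse rule, a peak in both LP libraries and in neither HP library, gave 96 promoter regions of 456 such regions in all. Their median scaled pileups were 0.654 and 0.651 in LP replicates 1 and 2. A region of all 4 libraries stood at the same promoter in 23.96% of them (95% Wilson interval 16.5 to 33.4, counting error only), and the nearest TSS was inside 14.6% (8.89 to 23.0). Among chromosomes with at least 1 HP-only promoter region, the share of promoter regions called only in HP was lowest on chromosome X (35 of 921) and highest on chromosome 15 (5.68%).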
